A study of Mus musculus with 6 samples.

Results

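The genes described here make the lysosome: the proteins of its membrane, the proton pump that acidifies it, enzymes that break down its contents, and TFEB, the transcription factor known for switching such genes on. They were chosen by name, as every array probe whose gene name starts with Atp6v together with 19 named lysosomal genes (Lamp1, Lamp2, Mcoln1, Scarb2, Cd63, Gaa, Gla, Glb1, Gusb, Hexa, Man2b1, Neu1, Lipa, Asah1, Tpp1, Psap, Grn, Tcirg1 and Tfeb). Names alone gave 40 genes on 45 probes. Tfeb stands in the array design under its older name Tcfeb and was added through its accession, which made 41 genes on 46 probes, of 31709 genes and names on 39429 probes in all. Of the 41, 39 had a probe that the scanner software marked well above background, in either dye, for 3 or more of the 6 arrays, and these were tested. Atp6v1b1 and Atp6v1c2, which encode versions of pump subunits known from kidney and other epithelia, were not well above background in either channel on any of the 6 arrays, so no ratio is given for them.

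The retinas came from male C57BL/6 mice, 8 weeks old when the right eye received titanium dioxide nanoparticles or PBS by injection into the vitreous, and were taken 7 days later. The labels name the particle doses PTC and 10PTC, the second 10 times the first, and do not spell out the abbreviation. PBS was the control, and each group held 12 mice. Each tube pooled 4 retinas, so a replicate is a pool and not a mouse, and its RNA comes from all cells in the tube together. Genes of skeletal muscle, a tissue outside the retina, were detected as well, with values given further on. Every one of the 6 arrays carried a particle-treated pool in Cy5 and PBS RNA in Cy3, with 3 arrays for PTC and 3 for 10PTC. The dyes were never swapped, so a dye effect cannot be told apart from the treatment, and the control has no array of its own, so the tests leave out the control's own spread.

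A lysosome is the acidic compartment in which cells digest what they have taken up or set aside through autophagy. The V-ATPase, a rotary pump, splits ATP with its outer V1 sector and moves protons across the membrane through its V0 sector. The resulting acidity activates the hydrolases. TFEB and its relatives bind a short promoter sequence, the CLEAR element, whose core is the E-box CACGTG, and raise many of these genes together. In the retina, lysosomes of the pigment epithelium digest shed photoreceptor tips, and those of microglia digest engulfed debris.

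The promoters are shown first because the E-box is the core of the sequence that TFEB is known to bind. RefSeq promoters of 300 bases (250 before to 50 after each annotated start, GRCm38.p6) were at hand for 34 of the 41 genes, 42 promoters in all. CACGTG, which reads the same on both strands, was found in 9 of the 42 (21.4%), against 7.15% of all 32851 mouse promoters of this length. TCACGTGA, the longer CLEAR core, which contains CACGTG and so overlaps it, was found in 5 of the 42 (11.9%), against 0.974% of all. Both are counts of letters and do not show binding. The genes with TCACGTGA were Gla, Mcoln1, Atp6v0e, Atp6v0d1 and Atp6v1a, and CACGTG without it was found for Lamp1, Atp6v0b, Gaa and Glb1. The windows of 30 bases that hold the core are given here, 5′ to 3′ on the strand of the gene, with the core in capitals.
Gla, chrX:134601182-134601211, minus strand: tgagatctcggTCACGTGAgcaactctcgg
Gla, chrX:134601215-134601244, minus strand: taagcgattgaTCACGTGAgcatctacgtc
Mcoln1, chr8:3500462-3500491, plus strand: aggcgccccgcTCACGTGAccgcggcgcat
Atp6v0e, chr17:26676387-26676416, plus strand: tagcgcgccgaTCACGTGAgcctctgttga
Atp6v0d1, chr8:105566050-105566079, minus strand: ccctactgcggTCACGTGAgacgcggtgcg
Atp6v1a, chr16:44139373-44139402, minus strand: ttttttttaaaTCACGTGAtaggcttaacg
Both Gla windows lie beyond the start of Hnrnph2, which RefSeq places 174 bases upstream of the start of Gla, so they fall inside the annotated span of that neighbour.

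Lamp1 and Mcoln1 are printed in full over the 250 bases before their starts, because both carry several E-boxes and their measured ratios had opposite signs. Capitals mark each CACGTG, with the T before it or the A after it where present. Lamp1 has 4 such sites within this stretch and Mcoln1 has 2.
Lamp1, chr8:13158911-13159160, plus strand: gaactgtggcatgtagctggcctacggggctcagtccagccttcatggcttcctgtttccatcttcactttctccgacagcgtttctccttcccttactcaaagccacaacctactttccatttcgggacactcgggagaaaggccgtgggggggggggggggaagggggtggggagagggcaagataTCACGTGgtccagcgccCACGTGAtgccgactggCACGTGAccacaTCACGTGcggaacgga
Mcoln1, chr8:3500269-3500518, plus strand: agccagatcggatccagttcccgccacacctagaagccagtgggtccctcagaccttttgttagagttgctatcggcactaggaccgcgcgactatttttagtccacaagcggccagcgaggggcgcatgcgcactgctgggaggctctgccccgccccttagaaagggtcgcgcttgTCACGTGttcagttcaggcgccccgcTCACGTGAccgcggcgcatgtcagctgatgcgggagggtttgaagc
Lamp1 rose and Mcoln1 fell in particle-treated retinas at both doses, with values given further on.

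All values that follow are log2 ratios of particle-treated over PBS retina, positive where the treated pool was brighter, unless an intensity is named. A gene was called higher or lower at an adjusted p under 0.05 in limma, adjusted over all 26134 genes tested. Between 70.99% and 85.51% of gene spots per array stood well above background in a channel, no spot was saturated, and the arrays' ratios correlated at 0.619 to 0.878. Photoreceptor markers were well above background in the PBS channel for 12 of 12 genes on all arrays. PTC replicates 1 and 2 lay on slide 1, and PTC replicate 3 with all 10PTC arrays on slide 2. Nothing in the labels says whether PBS RNA was 1 pool or several.

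Among the lysosomal genes, membrane proteins and hydrolases were more often higher than lower after particles, while most pump subunits were not called. At PTC, 10 of the 39 tested genes rose (25.6%) and 4 fell (10.3%), beside 16.9% and 16.3% of all genes tested. At 10PTC, 5 rose (12.8%) and 2 fell (5.13%), beside 14.4% and 13.3% of all genes. Thus, with 1 estimate of the spread shared by both doses, the share that rose was above the background at PTC and near it at 10PTC. The share that fell was below the background at both doses. The contrast between doses in the share that rose turned with the setting. With each dose fitted on its own arrays, 4 rose at PTC and 12 at 10PTC, and without PTC replicate 1 these counts were 5 and 12. The median ratio of the 39 was 0.06 at PTC and 0.09 at 10PTC, against medians of -0.00076 and -0.00044 for all genes.
On all 6 arrays, 12 of the 39 genes were above 0 and 5 were below it (Atp6v0a1, Atp6v0b, Atp6v0e2, Atp6v1g3 and Mcoln1). How many of all genes keep the same sign on all 6 arrays was not counted, so these numbers are not set against a background. The counts depend on the normalization and on the slide. With each array centred on its median in place of loess, 24 rose and 2 fell at PTC, and 29 rose and 1 fell at 10PTC. The median of all genes moved to 0.05 and 0.08. How many of all genes were called under this or any other alternative was not counted, so these counts are not set against a background. With the slide as a block, 3 rose and 4 fell at PTC and 1 rose and 1 fell at 10PTC. Within slide 2, where PTC had 1 array whose spread is taken from the 10PTC arrays, 3 rose and 0 fell at PTC and 12 rose and 2 fell at 10PTC. Within slide 1, with its 2 PTC arrays, 0 rose and 0 fell.

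**Figure D1:**
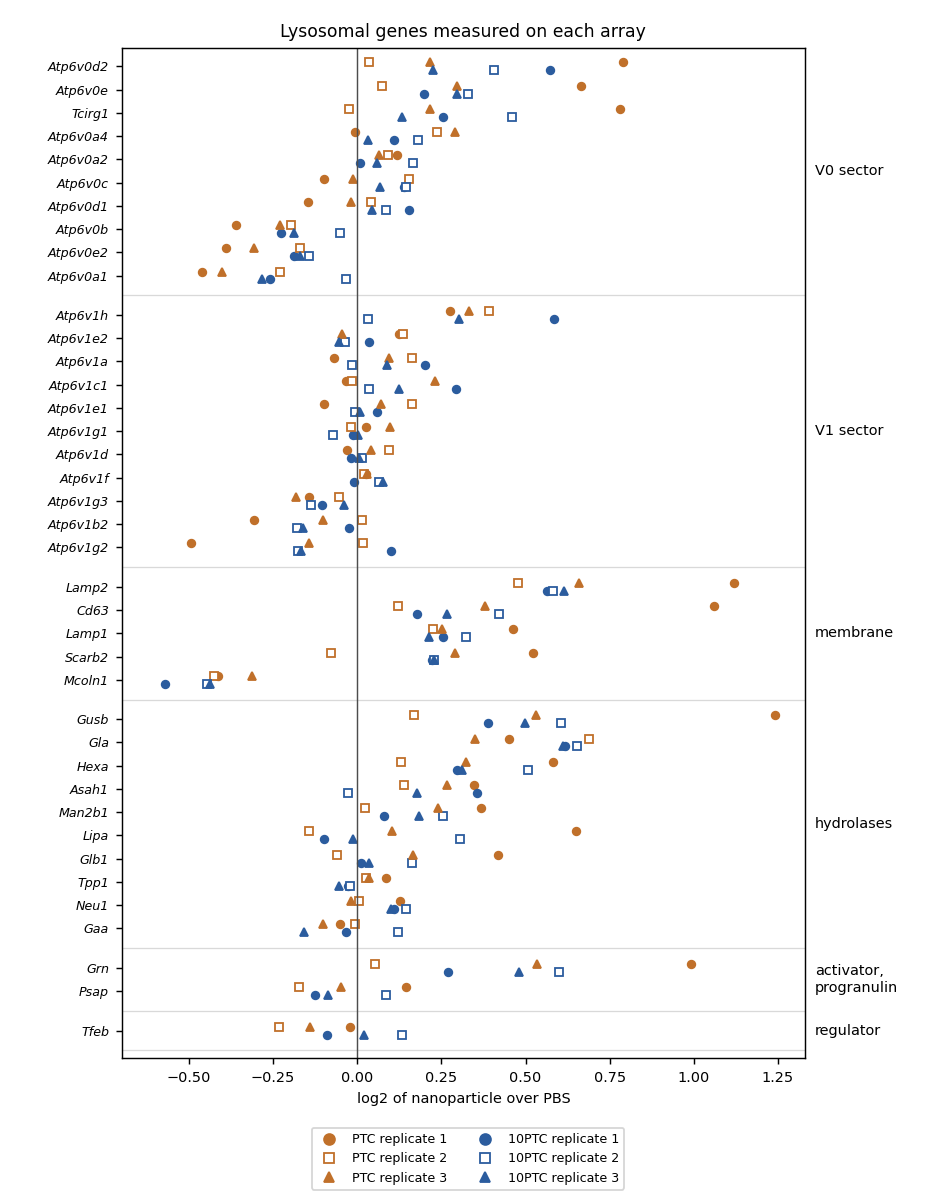
Each row is 1 of the 39 tested lysosomal genes, grouped by role, and the x axis is the log2 ratio of particle-treated over PBS retina on each of the 3 PTC arrays (orange) and 3 10PTC arrays (blue), with symbols for replicates. Lamp2, Gla and Lamp1 lie right of 0 and Mcoln1 left of 0 on all 6 arrays, while most V1 subunits lie on both sides of 0. For Atp6v0d2 the PBS channel was not well above background on any array.

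The membrane proteins had a median ratio of 0.31 at PTC and 0.26 at 10PTC over 5 genes, of which 3 rose and 1 fell at PTC and 2 rose and 1 fell at 10PTC. Of all genes, 16.9% rose and 16.3% fell at PTC, and 14.4% and 13.3% at 10PTC, so the count that fell is near these shares. Lamp2 encodes a main glycoprotein of the lysosomal membrane, a version of which acts as the receptor of chaperone-mediated autophagy. Its normalized intensity was 5519, 3470 and 3978 in the PTC pools, against 2539, 2493 and 2519 in the PBS channel of the same arrays. It was 4403, 4494 and 4172 in the 10PTC pools, against 2978, 3005 and 2728 in PBS. Every treated pool was thus brighter than every PBS channel. The log2 ratio averaged 0.75 ± 0.33 at PTC (SD, n = 3; a 1.68-fold rise; limma adjusted p = 0.00325) and 0.59 ± 0.02 at 10PTC (adjusted p = 0.00930). The probe used lies at chrX:35772774-35772833 in mm9 and is annotated to transcript variant 2. A second probe, annotated to variant 1 at chrX:35777505-35777564, gave 0.65 at PTC (limma adjusted p = 0.00560) and 0.43 at 10PTC (adjusted p = 0.0270), so both probes were called. Whether each probe reads its own variant alone was not tested.

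Lamp1, the companion glycoprotein of Lamp2, had log2 ratios of 0.46, 0.23 and 0.25 in the PTC pools and 0.26, 0.32 and 0.21 in the 10PTC pools. These are of one size on all 6 arrays except PTC replicate 1, which is higher. The mean was 0.31 ± 0.13 at PTC (limma adjusted p = 0.00686) and 0.26 ± 0.05 at 10PTC (adjusted p = 0.0154). Cd63, a tetraspanin of late endosomes and secreted vesicles, spread more widely, with 1.06, 0.12 and 0.38 at PTC and 0.18, 0.42 and 0.27 at 10PTC. It was called at PTC (0.52 ± 0.48, adjusted p = 0.0375) and not at 10PTC (0.29 ± 0.12, adjusted p = 0.20). Without PTC replicate 1 the mean of Cd63 at PTC was 0.25, with an adjusted p of 0.0636. Scarb2, which carries glucocerebrosidase to the lysosome, had 0.52, -0.08 and 0.29 at PTC and 0.22, 0.23 and 0.23 at 10PTC and was not called (adjusted p = 0.0933 and 0.124).

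Mcoln1 went the other way. It encodes TRPML1, a cation channel that lets calcium out of the lysosome. Its normalized intensity was 5393, 5329 and 6924 in the PTC pools, against 7188, 7160 and 8606 in PBS on the same arrays, and 6412, 6087 and 6328 in the 10PTC pools, against 9525, 8294 and 8563 in PBS. The treated channel was the dimmer on all 6 arrays. The log2 ratio averaged -0.38 ± 0.06 at PTC (limma adjusted p = 0.00217) and -0.48 ± 0.07 at 10PTC (adjusted p = 0.00144), or 0.766 and 0.715 of the PBS level. The probe lies at chr8:3515110-3515169 in mm9.

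Of the 10 hydrolases, 4 rose and 0 fell at PTC and 2 rose and 0 fell at 10PTC, with a median ratio of 0.21 and 0.14. Of all genes, 16.9% rose and 16.3% fell at PTC, and 14.4% and 13.3% at 10PTC, so the count that rose at 10PTC is near that share. Gla encodes alpha-galactosidase A, which removes terminal galactose from glycolipids. Its log2 ratio was 0.45, 0.69 and 0.35 in the PTC pools and 0.62, 0.65 and 0.61 in the 10PTC pools. No array was near 0, and the 10PTC pools lay close together. The means were 0.50 ± 0.17 (1.41-fold; limma adjusted p = 0.00252) and 0.63 ± 0.02 (1.55-fold; adjusted p = 0.00167). The single Gla probe, at chrX:131122895-131122954 in mm9, is a bright one, with normalized intensities of 106900, 112300 and 116200 in the PTC pools against 78290, 69760 and 91240 in PBS. In RefSeq's GRCm38 annotation the ribosomal protein gene Rpl36a ends just beyond the 3′ end of Gla, and whether the probe also reads RNA of that neighbour was not tested.

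Hexa, the alpha chain of beta-hexosaminidase, had 0.58, 0.13 and 0.32 at PTC and 0.30, 0.51 and 0.31 at 10PTC. All 6 values are above 0, with PTC replicate 2 the lowest. It was called at both doses (0.34 ± 0.23, limma adjusted p = 0.0203, and 0.37 ± 0.12, adjusted p = 0.0192). Gusb, beta-glucuronidase, is printed on the array in 10 spots and had 1.24, 0.17 and 0.53 at PTC and 0.39, 0.61 and 0.50 at 10PTC. It was called at PTC (0.65 ± 0.55, adjusted p = 0.0257), while its 10PTC mean of 0.50 ± 0.11 had an adjusted p of 0.0675. Asah1, acid ceramidase, had 0.35, 0.14 and 0.27 at PTC, which was called (0.25 ± 0.10, adjusted p = 0.0391), and 0.36, -0.03 and 0.18 at 10PTC, which was not (0.17 ± 0.19, adjusted p = 0.133). Without PTC replicate 1, the PTC mean of Gusb was 0.35, still called, and the means were 0.23 for Hexa (adjusted p = 0.0643) and 0.20 for Asah1 (adjusted p = 0.136), both short of a call.

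The other hydrolases were called at neither dose. Man2b1, lysosomal alpha-mannosidase, had 0.37, 0.02 and 0.24 at PTC and 0.08, 0.25 and 0.18 at 10PTC (limma adjusted p = 0.0531 and 0.104). Glb1, beta-galactosidase, and Lipa, acid lipase, had PTC ratios that ran over both sides of 0, at 0.42, -0.06 and 0.17 for Glb1 and 0.65, -0.14 and 0.10 for Lipa. In both genes PTC replicate 1 was the high array. The means of Neu1, a sialidase, were 0.04 and 0.12. Those of Tpp1, a peptidase lost in a form of neuronal ceroid lipofuscinosis, were 0.05 and -0.03. Gaa, acid alpha-glucosidase, depended on the probe. The brighter one, used here, at chr11:119146697-119146756 in mm9, gave -0.05 and -0.02 and was not called. The dimmer one, at chr11:119136014-119136073, gave 0.52 at PTC (limma adjusted p = 0.00164) and 0.30 at 10PTC (adjusted p = 0.0120), so no direction is given for Gaa.

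Grn encodes progranulin, a precursor that is cut into granulins within lysosomes and is made in quantity by microglia. Its log2 ratio was 0.99, 0.05 and 0.53 in the PTC pools and 0.27, 0.60 and 0.48 in the 10PTC pools. PTC replicate 1 is the high array again and PTC replicate 2 is at almost no change. Grn was called at PTC (0.53 ± 0.47, limma adjusted p = 0.0359) and not at 10PTC (0.45 ± 0.17, adjusted p = 0.0661). Without PTC replicate 1 its PTC mean was 0.29, with an adjusted p of 0.113. Psap, the precursor of the saposins, which help hydrolases reach their lipid substrates, had 0.14, -0.17 and -0.05 at PTC and -0.13, 0.09 and -0.09 at 10PTC, and was not called (adjusted p = 0.801 and 0.677).

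The proton pump moved less and in both directions. Of its 21 tested genes, 2 rose (9.52%) and 3 fell (14.3%) at PTC, and 1 rose and 1 fell (4.76% each) at 10PTC, shares below those of all genes in each direction. Its median ratio was 0.03 at PTC and 0.04 at 10PTC. All 3 that fell at PTC belong to the membrane sector. Atp6v0a1, the a subunit known from neurons and synaptic vesicles, had -0.46, -0.23 and -0.40 at PTC and -0.26, -0.03 and -0.28 at 10PTC. Its mean was -0.36 ± 0.12 at PTC (limma adjusted p = 0.00714) and -0.19 ± 0.14 at 10PTC (adjusted p = 0.0678). Atp6v0b, the c double-prime subunit of the proton-conducting ring, had -0.36, -0.20 and -0.23 at PTC and -0.23, -0.05 and -0.19 at 10PTC (-0.26 ± 0.09, adjusted p = 0.0104, and -0.16 ± 0.09, adjusted p = 0.0668). Both genes were below 0 on all 6 arrays, with 10PTC replicate 2 nearest to 0. With median centring in place of loess neither was called at PTC (-0.14, adjusted p = 0.0748, for Atp6v0a1 and -0.08, adjusted p = 0.241, for Atp6v0b), and at 10PTC both turned above 0, at 0.10 each.

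Atp6v0e2 and Atp6v0e encode alternative versions of the small e subunit, and they moved apart. Atp6v0e2, the version known from brain, had -0.39, -0.17 and -0.31 at PTC and -0.19, -0.14 and -0.17 at 10PTC and fell at both doses (-0.29 ± 0.11, limma adjusted p = 0.00626, and -0.17 ± 0.02, adjusted p = 0.0460). With median centring in place of loess it was not called at PTC (-0.04), and its 10PTC value turned to 0.15. Its fall thus depends on the normalization at both doses. Atp6v0e, the widely expressed version, had 0.67, 0.07 and 0.30 at PTC and 0.20, 0.33 and 0.30 at 10PTC, above 0 on every array. It was called at PTC (0.35 ± 0.30, adjusted p = 0.0343) and not at 10PTC (0.27 ± 0.07, adjusted p = 0.0782), and without PTC replicate 1 its PTC mean was 0.18 with an adjusted p of 0.0889. Within each array, Atp6v0e minus Atp6v0e2 was positive on 6 of 6 arrays, averaging 0.63 ± 0.41 at PTC and 0.44 ± 0.05 at 10PTC. This pair and those of the a and G subunits were chosen after their values were seen and carry no test.

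The a subunit, which steers the pump to its membrane, showed a like arrangement. Tcirg1, the a3 version known from osteoclasts and phagocytes, had 0.78, -0.02 and 0.22 at PTC and 0.25, 0.46 and 0.13 at 10PTC, and was not called (limma adjusted p = 0.111 and 0.165). Its difference from Atp6v0a1 was positive on 6 of 6 arrays, at 0.69 ± 0.52 for PTC and 0.47 ± 0.05 for 10PTC. Atp6v0a2, another a version, minus Atp6v0a1 was positive on 6 of 6 arrays too, at 0.46 ± 0.13 and 0.27 ± 0.07. The separation from Atp6v0a1 was thus not particular to Tcirg1. In the G subunit the pair did not separate as steadily: Atp6v1g1 minus the neuronal Atp6v1g2 was positive on 4 of 6 arrays, at 0.24 ± 0.28 and 0.05 ± 0.15. Atp6v0a2 averaged 0.09 and 0.08, and Atp6v0a4, a version known from kidney, 0.17 and 0.11. Neither was called. For Atp6v0d2, the d subunit version known from osteoclasts and macrophages, PBS RNA was not well above background on any of the 6 arrays, while the treated channel was on 2 of 3 PTC and 3 of 3 10PTC arrays. The fitted fold of Atp6v0d2 over PBS was 1.27 at PTC and 1.32 at 10PTC. The gene was not called (limma adjusted p = 0.0854 and 0.0625). The PBS value was taken as the higher of the dim PBS signal and the lowest signal of a probe well above background. Here it was the dim signal itself, so these folds carry its error and are not lower bounds. Without PTC replicate 1 the log2 ratio at PTC was 0.12, and with median centring it was 0.21 at PTC and 0.12 at 10PTC. A second Atp6v0d2 probe, which did not pass the filter, gave 0.16 at PTC and 0.01 at 10PTC, so the size of any difference is unsettled. The ubiquitous V0 genes Atp6v0c and Atp6v0d1 averaged 0.01 and -0.04 at PTC and 0.12 and 0.09 at 10PTC, without a call.

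**Figure D2:**
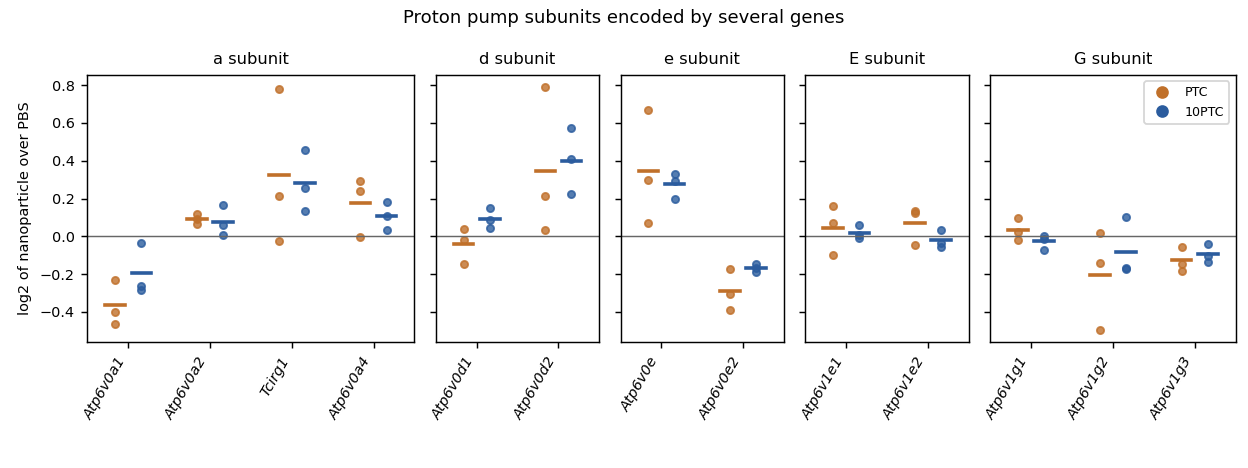
Log2 ratio of particle-treated over PBS retina (y axis) for the pump subunits that several genes encode, with 1 panel per subunit, points for the 3 arrays of each dose (orange PTC, blue 10PTC) and bars for their means. Atp6v0a1, Atp6v0e2 and Atp6v1g3 lie below 0 on all 6 arrays and Atp6v0e above 0 on all 6, while the other E and G subunit genes lie on both sides of 0. PBS RNA of Atp6v0d2 was not well above background.

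In the catalytic V1 sector, 1 of 11 tested genes rose and 0 fell at each dose. These are below the shares of all genes (16.9% and 16.3% at PTC, 14.4% and 13.3% at 10PTC). Atp6v1h, the H subunit, which holds back ATP splitting when the sectors come apart, had 0.27, 0.39 and 0.33 at PTC and 0.59, 0.03 and 0.30 at 10PTC. The PTC pools lay close together and the 10PTC pools did not. Its means were 0.33 ± 0.06 (limma adjusted p = 0.0310) and 0.31 ± 0.28 (adjusted p = 0.0465). Leaving out any 1 of the PTC arrays ended its PTC call (adjusted p from 0.0586 to 0.107), and without 10PTC replicate 1 its 10PTC mean was 0.17 (adjusted p = 0.228). The other 10, among them the catalytic A subunit (Atp6v1a), the widely expressed B subunit version Atp6v1b2 and the stalk subunits, averaged between -0.21 and 0.07 at PTC and between -0.12 and 0.15 at 10PTC. The 2 probes of Atp6v1a had opposite signs, 0.06 and -0.10 at PTC, and neither was called. Atp6v1g2, a G subunit version known from neurons, had the lowest mean at PTC among them, -0.21 ± 0.26, with -0.49 in replicate 1 against 0.02 in replicate 2 (adjusted p = 0.146). Atp6v1g3 was well above background on 4 of the 6 arrays. Its normalized intensity on slide 1 was 72.8 and 83.5 in the treated channel, against 80.4 and 86.8 in PBS, and on slide 2 it was 195 to 211 in the treated channel, against 214 to 228 in PBS. Its ratios averaged -0.13 at PTC and -0.09 at 10PTC without a call.

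Tfeb itself was not called. Its log2 ratio was -0.02, -0.23 and -0.14 in the PTC pools and -0.09, 0.13 and 0.02 in the 10PTC pools, so that the PTC arrays lay below 0 and the 10PTC arrays on both sides (limma adjusted p = 0.127 and 0.813). The probe, at chr17:47929089-47929148 in mm9, stood well above background with both dyes on each of the 6 arrays. Among the 9 genes whose promoters hold CACGTG, Gla, Lamp1 and Atp6v0e rose and Mcoln1 and Atp6v0b fell at PTC. Atp6v0d1, Atp6v1a, Gaa and Glb1 were not called. At 10PTC, Gla and Lamp1 rose and Mcoln1 fell. Genes with the core TCACGTGA thus stood at both ends of the range, with Gla at 0.63 and Mcoln1 at -0.48 at 10PTC.

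With 3 pools a dose, and both doses sharing 1 estimate of the spread, many calls were lost when 1 array was left out. Leaving out an array also lowers the residual degrees of freedom and changes the shared spread. A 10PTC array has no part in a PTC mean, so a PTC call lost without it does not show a moved PTC mean. The PTC calls of Cd63, Grn and Atp6v0e were lost without PTC replicate 1, without PTC replicate 3 and without any 1 of the 10PTC arrays. Without PTC replicate 3 the limma adjusted p at PTC was 0.0838 for Cd63, 0.118 for Grn and 0.0950 for Atp6v0e, and also 0.0723 for Gusb, 0.0729 for Hexa and 0.133 for Asah1. Asah1 was lost without 10PTC replicate 3 too (0.0689). At 10PTC, Lamp1 and Hexa were lost without any 1 of the 10PTC arrays, with adjusted p of 0.0680 to 0.0910 for Lamp1 and 0.0836 to 0.0905 for Hexa. Lamp2 at 10PTC was lost without 10PTC replicate 1 (0.0657) or replicate 3 (0.0644). Atp6v0e2 at 10PTC was lost without PTC replicate 3 (0.0745) or any 10PTC array (0.106 to 0.198). Atp6v1h at 10PTC was also lost without PTC replicate 2 (0.0587), PTC replicate 3 (0.0745) or 10PTC replicate 3 (0.167), and at PTC without 10PTC replicate 3 (0.0551). Gla and Mcoln1 kept their calls at both doses whichever array was left out, and Lamp2, Lamp1, Atp6v0a1, Atp6v0b and Atp6v0e2 kept theirs at PTC.

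**Figure D3:**
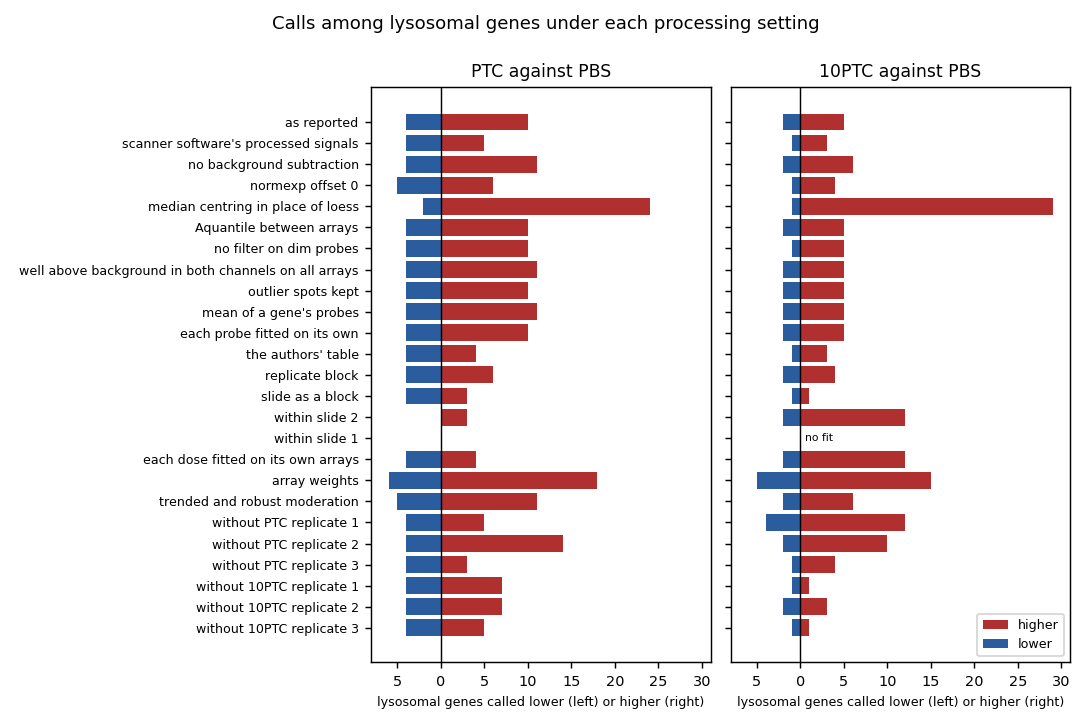
Number of the 39 tested lysosomal genes called higher (red, to the right) or lower (blue, to the left) for PTC and for 10PTC against PBS, with 1 row per processing setting and the reported setting on top. The counts run from 0 to 24 higher at PTC and from 1 to 29 at 10PTC, with the most under median centring. Within slide 1 there is no 10PTC array. The share of all genes called was not counted for the alternative settings.

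The PTC pools of the lysosomal genes stood in an order that recurred. In 14 of the 18 genes outside the pump (77.8%), PTC replicate 1 was highest, replicate 3 next and replicate 2 lowest. This order held for 3 of the 21 pump genes (14.3%) and for 22.8% of all genes. It was set from the medians of the microglia and macrophage markers given below, so their own share is no test of it. The medians of the 18 genes were 0.43, 0.02 and 0.25 in PTC replicates 1, 2 and 3, and 0.14, 0.24 and 0.18 in the 10PTC pools. Markers of microglia and macrophages, cells rich in lysosomes, had medians of 1.82, 0.75 and 1.34 in the PTC pools and 0.99, 1.00 and 1.20 in the 10PTC pools, and 13 of the 15 markers (86.7%) showed the same order. At each dose 13 of the 15 were called higher and 0 lower, and in PBS RNA 13 of the 15 were well above background on all arrays. This order was not particular to microglia. In PTC replicates 1, 2 and 3 the medians were 0.61, 0.20 and 0.24 for Muller glia and astrocyte markers. They were 0.42, 0.19 and 0.22 for pigment epithelium and 0.02, -0.02 and -0.01 for vascular endothelium. The reverse order held for ganglion cells (-0.77, -0.32 and -0.44) and for rods and cones (-0.27, 0.22 and -0.06). Skeletal muscle genes had neither (-2.55, -2.39 and -3.37). In pooled tissue a change in the number of cells of a type and a change in RNA per cell cannot be told apart. The lists overlap in places. Cd68 stands both among the microglia and macrophage markers and among the other lysosomal membrane proteins described further on. Rlbp1 stands in both the Muller glia and the pigment epithelium lists. The part any of these markers have in the lysosomal values was not tested.

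The other marker lists are given for the same pools, beside 16.9% higher and 16.3% lower of all genes at PTC and 14.4% and 13.3% at 10PTC. Retinal ganglion cell markers fell in 9 of 11 genes at PTC and 8 of 11 at 10PTC, with medians of -0.52 and -0.44. Of 10 Muller glia and astrocyte markers, 6 rose and 1 fell at each dose. Pigment epithelium markers rose in 5 of 12 at PTC, with a median of 0.24, and at 10PTC 4 rose and 1 fell. Of 12 rod and cone markers, 1 rose and 2 fell at each dose. Of 10 vascular endothelium markers, 1 rose and 2 fell at PTC, and 0 rose and 1 fell at 10PTC. The counts of rods and cones and of endothelium are near the shares of all genes. Skeletal muscle genes were lower in treated pools in 12 of 12 genes, with medians of -2.86 at PTC and -2.32 at 10PTC, and all 12 were well above background in PBS RNA on all arrays. Skeletal muscle is not part of the retina, so the PBS and treated RNA differed in more than retinal transcripts. The source of the muscle RNA and its part in the lysosomal values were not tested.

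**Figure D4:**
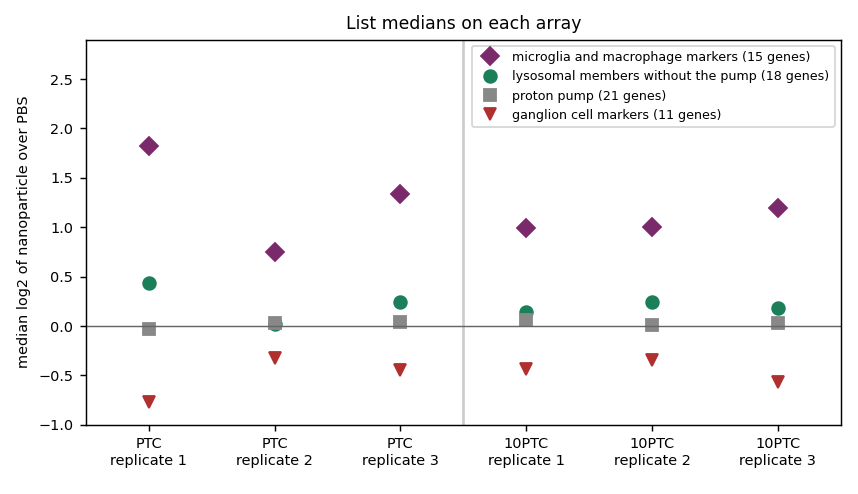
Median log2 ratio of particle-treated over PBS retina (y axis) on each of the 6 arrays (x axis) for microglia and macrophage markers, lysosomal genes outside the pump, proton pump genes and ganglion cell markers. In the PTC pools the microglia markers (1.82, 0.75, 1.34) and the lysosomal genes outside the pump (0.43, 0.02, 0.25) are both highest in replicate 1 and lowest in replicate 2, while the pump stays between -0.03 and 0.06 on all 6 arrays.

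The doses were not told apart for any lysosomal gene. In limma, 0 of the 39 were higher and 0 lower at 10PTC than at PTC, beside 0% of all 26134 genes in each direction. At an unadjusted p under 0.05 there were 0 of the 39 and 2130 of all genes. The fitted difference, 10PTC minus PTC, ran from -0.23 for Cd63 to 0.17 for Atp6v0a1, with a median of -0.02. For Gla it was 0.13 (95% interval -0.08 to 0.35), for Lamp2 -0.17 (-0.52 to 0.19) and for Mcoln1 -0.10 (-0.26 to 0.06). For Gusb the interval was -0.72 to 0.42, which leaves room for a difference in either direction as large as the effect of PTC on most of these genes. The replicates of the lower dose varied more: the SD over 3 arrays was wider at PTC than at 10PTC for 30 of the 39 genes, with medians of 0.0813 at 10PTC and 0.13 at PTC. Over all genes it was wider at PTC for 16710 of 26134, with medians of 0.0744 at 10PTC and 0.0993 at PTC. Since 2 PTC arrays sit on slide 1 and none of the 10PTC arrays do, slide and dose are mixed in this comparison, and with the slide as a block 0 of the 39 were called as well.

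**Figure D5:**
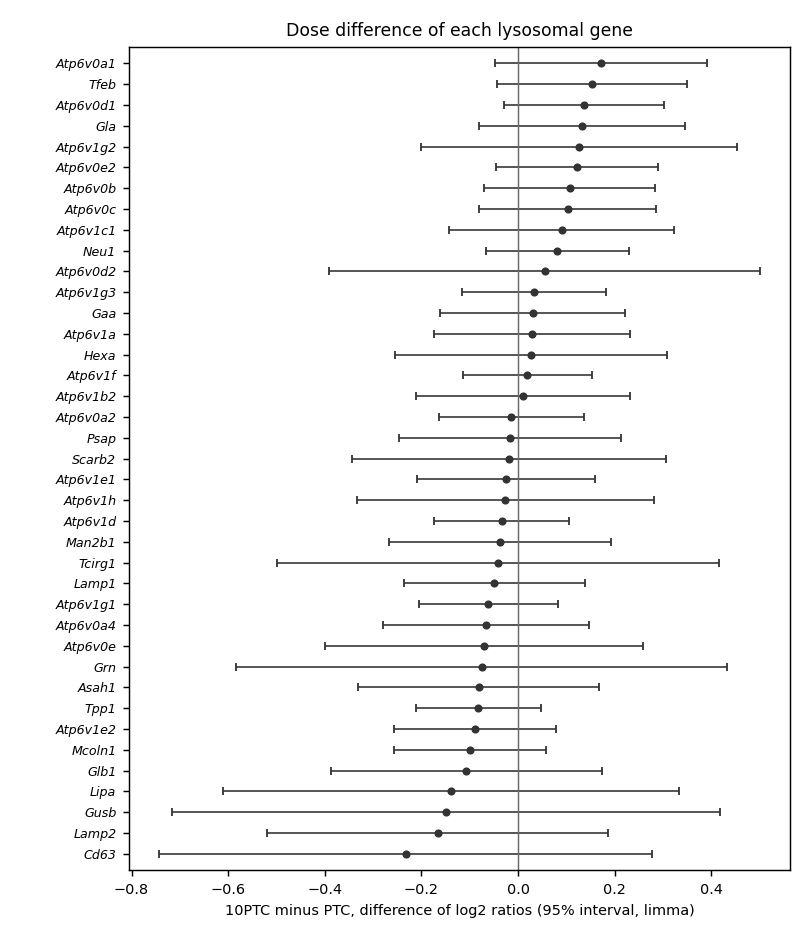
Difference of log2 ratios, 10PTC minus PTC (x axis), for each of the 39 tested lysosomal genes, with the 95% interval from limma. Every interval includes 0, with fitted values from -0.23 for Cd63 to 0.17 for Atp6v0a1.

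Lysosomal genes outside the 41 were examined as 6 lists, whose counts stand beside 16.9% higher and 16.3% lower of all genes at PTC and 14.4% and 13.3% at 10PTC. Of 28 other hydrolases, 13 rose and 5 fell at PTC (median 0.16) and 12 rose and 5 fell at 10PTC (median 0.18), so that the share that fell was near that of all genes. Sgsh, which degrades heparan sulfate, rose by 0.89 ± 0.25 at PTC (limma adjusted p = 0.00105) and 0.82 ± 0.08 at 10PTC (adjusted p = 0.00182). Smpd1, acid sphingomyelinase, fell at both doses (-0.49 ± 0.12, adjusted p = 0.00354, and -0.42 ± 0.16, adjusted p = 0.00734), as did Arsb, a sulfatase (-0.25 ± 0.08, adjusted p = 0.00701, and -0.28 ± 0.03, adjusted p = 0.00683). Of 23 other lysosomal membrane proteins, 10 rose and 1 fell at PTC and 7 rose and 0 fell at 10PTC. Laptm4a, a late endosomal membrane protein, rose at both doses (0.40 ± 0.15, adjusted p = 0.00362, and 0.33 ± 0.03, adjusted p = 0.00901). So did Slc11a1, a metal transporter of phagocyte vacuoles (0.90 ± 0.57, adjusted p = 0.00938, and 0.80 ± 0.11, adjusted p = 0.0173). Npc1, which exports cholesterol, rose at both doses too (0.35 ± 0.18, adjusted p = 0.0191, and 0.41 ± 0.19, adjusted p = 0.0139).

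Of 13 factors that assemble or bind the pump, 1 rose and 2 fell at PTC and 1 rose and 1 fell at 10PTC, counts near or below the shares of all genes. Ncoa7, a protein that binds the V-ATPase, fell at both doses (-0.29 ± 0.08, limma adjusted p = 0.00462, and -0.26 ± 0.03, adjusted p = 0.00828), and Dmxl2, which helps join the sectors, rose at 10PTC (0.27 ± 0.12, adjusted p = 0.0120). Of 19 genes for relatives of TFEB and for amino acid sensing by mTORC1 on the lysosome, 6 rose and 4 fell at PTC and 5 rose and 3 fell at 10PTC, and the lower counts are near the shares of all genes. Tsc2, which restrains Rheb, had the lowest p among them, at 0.95 ± 0.08 and 0.87 ± 0.09 (adjusted p = 0.000219 and 0.000439). Rheb, the activator of mTORC1, rose as well (0.34 ± 0.08, adjusted p = 0.00360, and 0.27 ± 0.08, adjusted p = 0.0106). Lamtor2, part of the Ragulator anchor, fell (-0.30 ± 0.06, adjusted p = 0.00837, and -0.39 ± 0.13, adjusted p = 0.00455). Mitf, a relative of TFEB, rose at both doses (0.43 ± 0.13, adjusted p = 0.00284, and 0.28 ± 0.08, adjusted p = 0.0147).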

How the data were processed

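Retinal RNA was hybridised to 6 Agilent whole mouse genome arrays of 60-base probes. The deposited scanner files hold spot intensity in 2 channels, made with Agilent Feature Extraction 10.7.3.1 per the file headers, while the submitters' processing notes name 9.3.2.1. They also hold a log10 ratio per spot, made by the same software per the file headers. The authors deposited a table of log2 ratios too, which tracked the log10 ratios (r from 0.983 to 1.00, slope near 3.32, column medians -0.0751 to 0.0387); no source used here gives its centring.

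Mean signals were corrected against the median local background with normexp (offset 50) and normalized by loess within arrays in limma 3.58.1 (R 4.3.3); tables were read with version 1.17.8 of the package data.table, and 1377 control spots had no weight in the loess curve. Spots marked as outliers (185 to 274 per array) were left out, and spots of a probe averaged. Of 39429 probes, 26055 took their gene name from the RefSeq gene list through an accession, 3195 through a symbol and 930 through a synonym; 9249 kept the name in the file. Probes not well above background in a channel on 3 of 6 arrays (6939) were dropped, and each gene took its probe of highest mean intensity, which left 26134. The model had a coefficient for each dose, with 4 residual and 3.41 prior degrees of freedom, and Benjamini-Hochberg adjustment at 0.05. Median signals before subtraction were 187 to 347 in Cy5 and 153 to 221 in Cy3, over backgrounds of 47 to 48 and 26 to 29; with 3 arrays a dose, the number of arrays limits the precision. Labels do not say that pools are separate animals beyond the pooling, so p-values measure the spread between pools.

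The genes and the 19 lists (245 names, 3 not tested) were chosen with earlier results of these data known. Every gene of the lysosomal set is accounted for; from each other list, up to 4 genes with the smallest p among those called were eligible to be named. Probe positions are those of the array design (mm9); promoters are RefSeq's (GRCm38.p6). The scripts were tested on simulated data. The alternatives were background correction, normalization, filter, probe rule, the authors' table, replicate and slide blocks, array weights, moderation, and leaving out each array.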

Additional observations from a re-analysis of the deposited data

Results flagged for a closer look

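Tpp1, which encodes tripeptidyl peptidase 1, had log2 ratios above 0 on all 3 PTC arrays (0.08, 0.03 and 0.04) and below 0 on all 3 10PTC arrays (-0.03, -0.02 and -0.05). The opposite signs at the doses are what drew attention to it. Its difference, 10PTC minus PTC, was -0.0829 (95% interval -0.21 to 0.05; limma adjusted p = 0.716), which misses the threshold, and neither dose differed from PBS (adjusted p = 0.538 at 10PTC and 0.373 at PTC).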

How the results depend on the processing

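The results were recomputed under 24 alternatives (23 at 10PTC). The share of all genes called under each alternative was not counted, so the counts below have no background beside them. Gla and Mcoln1 were called at 10PTC under all 23, and at PTC under 23 and 22 of 24. Lamp2 was called under 20 of 23 and 23 of 24, and Lamp1 under 19 of 23 and 22 of 24. At PTC, Atp6v0a1, Atp6v0b and Atp6v0e2 lost their calls under 3 alternatives, and Cd63, Grn and Atp6v0e under 13. The count of genes that rose, 10 at PTC and 5 at 10PTC as reported, was 5 and 3 with the scanner software's processed signals, 6 and 4 with normexp offset 0, 24 and 29 with median centring, 4 and 3 from the authors' table, 3 and 1 with the slide as a block, 3 and 12 within slide 2, 4 and 12 with each dose fitted on its own, and 18 and 15 with array weights; within slide 1 it was 0 at PTC. The count that fell, 4 and 2 as reported, was 2 and 1 with median centring, 0 and 2 within slide 2, 0 at PTC within slide 1, and 6 and 5 with array weights. At 10PTC it was 1 with processed signals, offset 0, no filter, the authors' table and the slide block. Leaving out 1 array at a time gave 3 to 14 higher and 4 lower at PTC (3 without PTC replicate 3), and 1 to 12 higher and 1 to 4 lower at 10PTC (1 higher without 10PTC replicate 1 or 3). No lysosomal gene was called between doses under any alternative run. Among values called under either setting, signs turned with median centring for Gaa at PTC (0.17) and, at 10PTC, for Atp6v0e2 (0.15), Atp6v1e2 (0.14), Atp6v1g1 (0.24), Gaa (0.27), Psap (0.22) and Tpp1 (0.19), and with the mean of a gene's probes for Gaa at PTC (0.23). Uncalled values that turned with median centring were those of Atp6v0d1 (0.13), Atp6v1b2 (0.04) and Psap (0.17) at PTC, and of Atp6v0a1 (0.10), Atp6v0b (0.10), Atp6v1b2 (0.10), Atp6v1g2 (0.12) and Atp6v0a4 (-0.03) at 10PTC. The cause was not tested. The replicate numbers did not pair the arrays (r of -0.272, 0.146 and 0.198 between same-numbered arrays); with a replicate block 6 rose and 4 fell at PTC, and 4 rose and 2 fell at 10PTC. Dim genes such as Atp6v0d2 are limited by signal over background.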

Other observations

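Genes that deliver enzymes to the lysosome and genes of autophagy moved in both directions. Of 21 sorting genes, 6 rose and 5 fell at PTC and 7 rose and 2 fell at 10PTC, beside 16.9% higher and 16.3% lower of all genes at PTC and 14.4% and 13.3% at 10PTC. Gga1, an adaptor that gathers mannose 6-phosphate receptors at the Golgi, had log2 ratios of -0.56 ± 0.04 at PTC (limma adjusted p = 0.00141) and -0.33 ± 0.15 at 10PTC (adjusted p = 0.00967). Ap1s1, the small chain of the AP-1 adaptor, fell at both doses as well (-0.36 ± 0.02, adjusted p = 0.00351, and -0.39 ± 0.12, adjusted p = 0.00376). Ap1b1, a large chain of the same adaptor, rose at 10PTC (0.21 ± 0.07, adjusted p = 0.0216). Of the tethering complexes that bring vesicles to the lysosome, Vps18 fell at PTC (-0.27 ± 0.06, adjusted p = 0.00613), Vps39 rose at both doses (0.26 ± 0.09, adjusted p = 0.0102, and 0.17 ± 0.08, adjusted p = 0.0478) and Vps41 rose at 10PTC (0.25 ± 0.08, adjusted p = 0.0183; 0.15 ± 0.11, adjusted p = 0.0794, at PTC).

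Of 20 autophagy genes, 3 rose and 5 fell at PTC and 4 rose and 3 fell at 10PTC, against the same shares of all genes. Members of the ATG8 family, which coat the autophagosome, moved in both directions. Those that fell were Gabarapl2 at both doses (-0.29 ± 0.04, limma adjusted p = 0.00963, and -0.32 ± 0.14, adjusted p = 0.00899), Map1lc3a at PTC (-0.52 ± 0.16, adjusted p = 0.0105) and Gabarap at 10PTC (-0.31 ± 0.12, adjusted p = 0.0138), with Gabarapl1 at PTC (-0.24 ± 0.14, adjusted p = 0.0195). Map1lc3b rose at both doses (0.14 ± 0.07, adjusted p = 0.0435, and 0.21 ± 0.05, adjusted p = 0.0158). Gabarapl1 and Map1lc3b were added after their values were seen, to complete the family. Of the machinery that attaches ATG8 proteins to membranes, Atg16l1 rose at both doses (0.30 ± 0.02, adjusted p = 0.00317, and 0.41 ± 0.06, adjusted p = 0.00167) and Atg7 fell at both (-0.25 ± 0.05, adjusted p = 0.00628, and -0.30 ± 0.06, adjusted p = 0.00485).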
